A study of Mus musculus with 8 samples.

Results

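The 2',5'-oligoadenylate synthetase (OAS) family and the cytosolic sensors of double-stranded RNA were followed in camptothecin-treated mouse mammary tumour cells. The set held 10 genes of 18883 named on the array: Oas1a, Oas2, Oas3, Oasl1, Oasl2, Ddx58 (RIG-I), Ifih1 (MDA5), Dhx58 (LGP2), Eif2ak2 (PKR) and Adar. Every probe that carried one of their accessions was taken, which gave 17 of 41174 probes. The genes were chosen with their log ratios on all 8 arrays already known, so their differences are described here and are not tested. The 3 knockdown samples and the 3 vector samples were FVB PyMT tumour cells of the line WTA, wild type for Mtdh. The knockdown cells carried the lentiviral LKO1 vector with a short hairpin against Snd1, and the control cells carried the empty vector. The other 2 samples were FVB PyMT cells of the line KO2, which lack Mtdh and were given back either W391D mutant Mtdh (1 array) or wild-type Mtdh (1 array) from an ires2-GFP lentivirus. W391D Mtdh is deficient in binding Snd1, per the series' design text. The hairpin lines were selected with puromycin and the rescue lines by sorting for GFP. All samples had received 50 uM camptothecin, a topoisomerase I poison, for 36 h, and no untreated cells were analysed here.

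As background, double-stranded RNA in the cytosol marks viral infection but can also come from a cell's own transcripts. The OAS enzymes answer it by making 2',5'-linked oligoadenylates, signal molecules of the antiviral state. RIG-I and MDA5 answer it through the mitochondrial adaptor Mavs, which leads to interferon production, and PKR answers it by phosphorylating the translation factor eIF2 alpha. ADAR1 edits adenosines in such RNA to inosines and thereby keeps MDA5 quiet. Most of these genes are themselves induced by interferon, through the factor ISGF3, which contains Stat2 and Irf9, bound to interferon-stimulated response elements. Snd1, also called Tudor-SN, is a nuclease-domain protein that can bind inosine-containing double-stranded RNA, and metadherin (Mtdh) is one of its partners.

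Each array set sample RNA in Cy5 against a common reference in Cy3, a mix of RNA from 11 cell lines of the mouse, so every value below is a log2 ratio of Cy5 to Cy3 unless a difference is named. Ratios correlated across probes at 0.979 to 0.992 among knockdown arrays, at 0.978 to 0.99 among vector arrays, and at 0.854 to 0.874 between the groups. Replicate 1 of both groups lay on 1 slide, replicates 2 and 3 of both groups on a second, and each rescue array on a slide of its own. Median Cy5 signal per array ranged from 158 to 363 over a median background of 61 to 72, and the small number of arrays limits the precision. The hairpin's target Snd1 gave -3.23, -3.33 and -3.44 in knockdown arrays, against -2.49, -2.40 and -2.43 in vector arrays, a difference of -0.90 ± 0.06 (SE, n = 3 and 3). Its transcript was thus 1.86-fold lower in the group labelled as knockdown. Mtdh differed by -0.12 ± 0.06 by its brighter probe and by 0.05 by the other. The labels do not say whether replicates were separate cultures, so errors measure the spread between these arrays only.

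Of the 10 genes, 9 were lower in the knockdown cells by their brightest probe and 1, Oasl1, was higher. By probe, 15 of 17 had all 3 knockdown values below all 3 vector values, which held for 25.5% of the 33563 probes tested. In 8 of the genes every probe did so. The background shares are given for scale only, since the genes were picked from this comparison. The difference reached 2-fold on 6 probes of 5 genes (Oas2, Oas3, Oasl2, Ddx58 and Dhx58), a size that 1.40% of all probes tested reached. The median difference of the 10 genes was -0.95, or -1.00 without Oasl1, beside 0.02 over all probes tested. Within slides it was -0.86 (first) and -0.94 (second). All 17 probes passed the filter on dim probes. The second Oas2 probe, counted among the 15, passed only through its vector arrays, being well above background on 1 of 3 knockdown arrays. The largest SD within a group was 0.18 among knockdown arrays and 0.25 among vector arrays.

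Markers of cell types moved between the same arrays, where 25.6% of the 17224 named genes tested were called lower and 26.0% higher. Of 10 mammary epithelial markers 9 were above the reference RNA on all 8 arrays, while Krt19 lay between -4.24 and -0.28. Of these 10 markers 7 were lower and 2 higher in knockdown cells, with a median difference of -0.41. Their summed Cy5 signal was 223000 to 239000 in knockdown arrays, against 294000 to 340000 in vector arrays, and Krt18 and Krt8 were the brightest of them. Of 11 fibroblast markers none was lower and 8 were higher, with a median difference of 0.31, and their summed Cy5 signal was 25400 to 28500 in knockdown arrays, against 13900 to 14900 in vector arrays. Their differences ran from 0.02 for Dcn to 2.72 for Postn. All of them lay below the reference RNA on every array, except Postn, whose mean was 0.88 in knockdown arrays, against -1.85 in vector arrays. Of 12 leukocyte markers 9 were tested, and 2 were lower and 1 higher, with a median of 0.08. The leukocyte sum was 4630 to 4710 in knockdown arrays, against 5390 to 5900 in vector arrays. Cd14, by far the brightest of the tested leukocyte markers, differed by -0.47 and weighed most in that sum. The pan-leukocyte gene Ptprc lay between -6.20 and -5.76 on the 6 arrays, far below the reference RNA. These calls are from limma at an adjusted p under 0.05, and the part of such markers in the differences of the RNA-sensing genes was not tested. In bulk RNA, fewer cells of a type and less RNA per cell cannot be told apart.

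**Figure D1:**
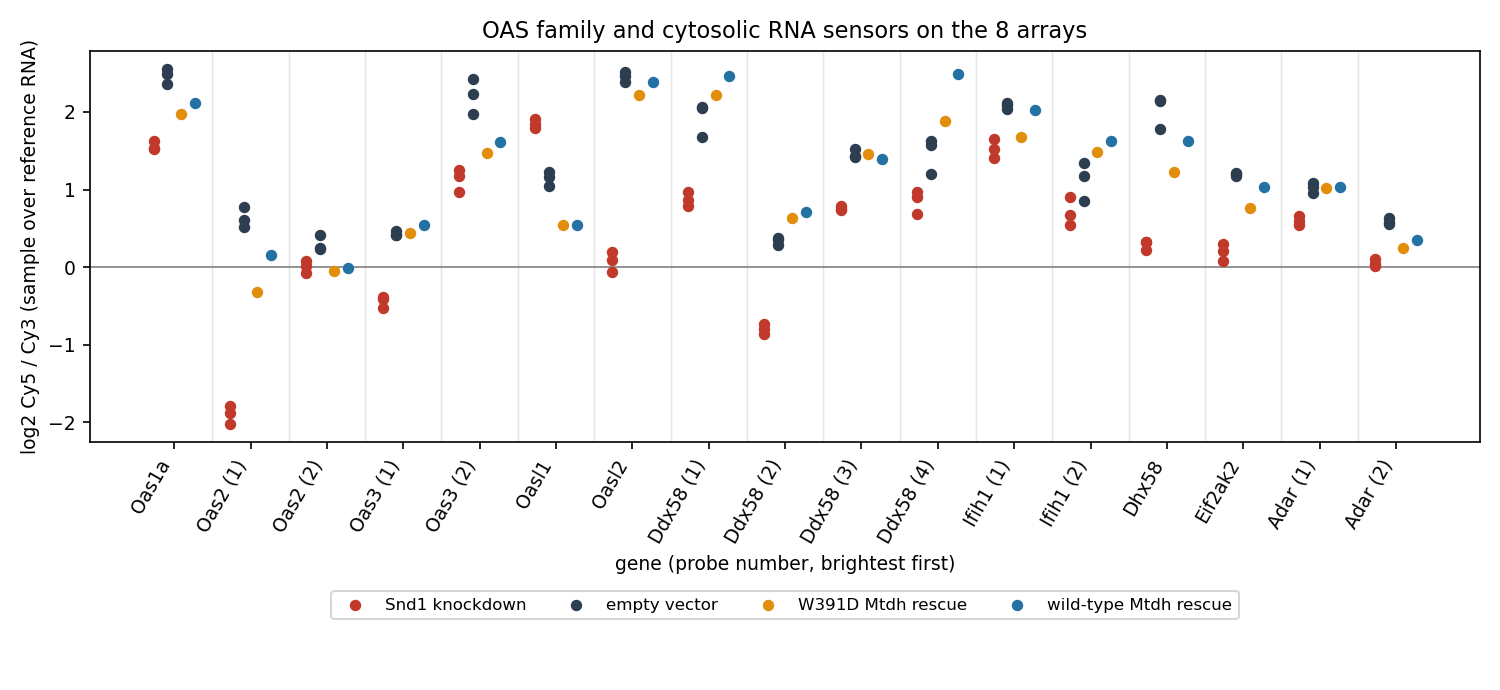
Log2 Cy5/Cy3 of each of the 17 probes (x axis, gene and probe number) on the 8 arrays; each point is 1 array, coloured by group. Knockdown points lie below vector points for 15 probes, lie above them for Oasl1, and overlap them for Ifih1 probe 2.

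Promoter sequences are shown because these genes share a textbook route of induction and Oasl1 departed from the others. RefSeq promoters on GRCm38.p6, 250 bases before to 50 after a start site, were found for 8 of the 10 genes, and none was matched for Oas2 or Dhx58. They were searched on both strands for GAAANNGAAA and for GAAANGAAA, the paired GAAA cores of response elements bound by ISGF3 and other interferon regulatory factors. At least one of these patterns was present in 6 of the 8 genes, against 7.27% of the 27018 genes in the table. By window, GAAANNGAAA occurred in 3.44% of 32841 windows, GAAANGAAA in 3.17% and either in 6.28%. A match is a run of letters and not a shown binding site. The promoter of Oas3 held one match of each kind and that of Ddx58 likewise, whereas Oasl1 and Oasl2 had none in this window. Capitals mark the matches in the sequences, each written 5′ to 3′ on the gene's strand.
Oas3, chr5:120777610-120777909, minus strand: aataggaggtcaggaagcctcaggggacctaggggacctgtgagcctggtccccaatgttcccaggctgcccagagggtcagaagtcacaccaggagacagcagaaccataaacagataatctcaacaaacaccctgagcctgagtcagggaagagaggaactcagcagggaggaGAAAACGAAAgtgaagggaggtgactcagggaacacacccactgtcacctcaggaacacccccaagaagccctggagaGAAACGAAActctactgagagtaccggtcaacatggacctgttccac
Ddx58, chr4:40239776-40240075, minus strand: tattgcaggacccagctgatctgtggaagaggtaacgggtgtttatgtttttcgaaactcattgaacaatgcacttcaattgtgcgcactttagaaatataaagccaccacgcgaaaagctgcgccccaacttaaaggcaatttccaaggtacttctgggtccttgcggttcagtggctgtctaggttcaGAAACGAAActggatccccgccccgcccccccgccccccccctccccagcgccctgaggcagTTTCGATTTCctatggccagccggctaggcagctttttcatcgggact
Oasl1, chr5:114922990-114923289, plus strand: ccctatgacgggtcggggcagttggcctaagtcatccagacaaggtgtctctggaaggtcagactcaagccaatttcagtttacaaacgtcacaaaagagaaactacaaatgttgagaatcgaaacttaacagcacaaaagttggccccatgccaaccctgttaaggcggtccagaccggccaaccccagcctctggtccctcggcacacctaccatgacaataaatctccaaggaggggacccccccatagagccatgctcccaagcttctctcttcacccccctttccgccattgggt
Oasl2, chr5:114896684-114896983, plus strand: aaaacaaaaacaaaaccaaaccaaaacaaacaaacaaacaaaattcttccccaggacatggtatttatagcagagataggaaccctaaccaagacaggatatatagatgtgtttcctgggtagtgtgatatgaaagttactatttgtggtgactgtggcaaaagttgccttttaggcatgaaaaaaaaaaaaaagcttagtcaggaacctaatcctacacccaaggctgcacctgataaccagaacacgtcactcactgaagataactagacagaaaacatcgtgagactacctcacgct
Oas1a, chr5:120907508-120907567, minus strand: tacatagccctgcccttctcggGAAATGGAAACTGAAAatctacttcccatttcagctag
The Oas1a stretch of 60 bases shows a pair of overlapping GAAANNGAAA matches that share a GAAA core, at -20 to -11 and at -14 to -5 from the start base. In Oas3 the matches lay at -75 to -66 and at 3 to 11, and in Ddx58 at -60 to -52 and, on the opposite strand, at 2 to 11. Ifih1 had GAAANNGAAA at 32 to 41 and Eif2ak2 at 18 to 27, both within the first transcribed bases. Of 3 Adar windows only window 3 held a match, GAAANGAAA at 28 to 36. No match means only that these letters are absent from this window.

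**Figure D2:**
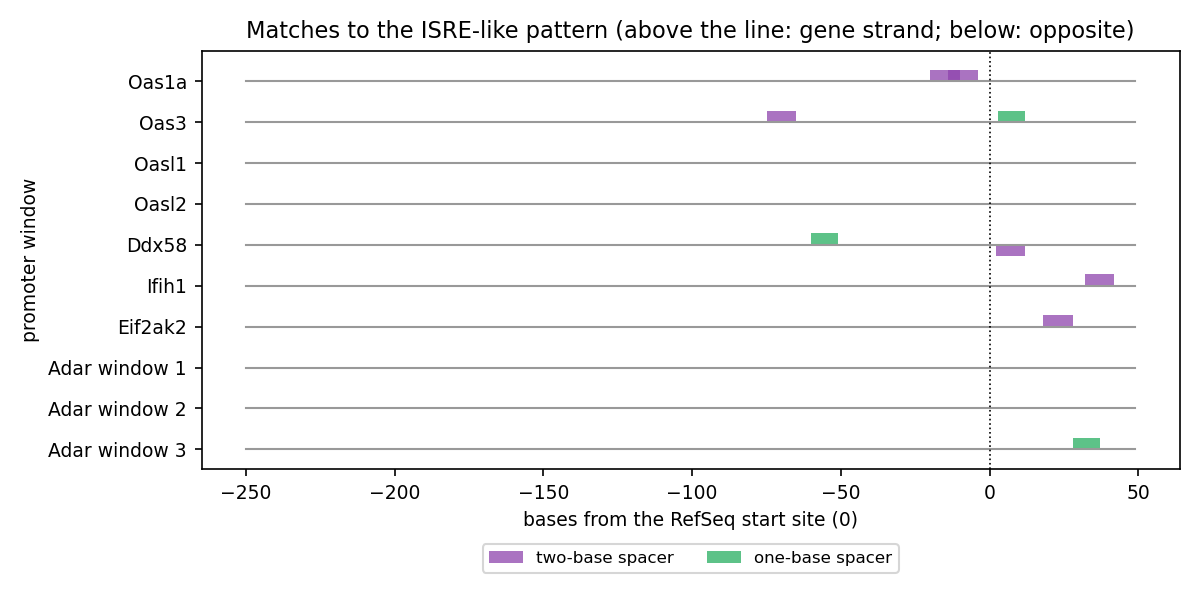
Positions of GAAANNGAAA (purple, two-base spacer) and GAAANGAAA (green, one-base spacer) in the RefSeq promoter windows of 8 genes; the x axis is bases from the start site, with gene-strand matches above the line and opposite-strand matches below. All matches lie between -75 and 41, and Oasl1, Oasl2 and Adar windows 1 and 2 hold none.

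Among the synthetases proper, Oas2 showed the widest gap between the groups. Oas2 is the medium-sized enzyme of the family, and its bright probe gave -1.79, -1.88 and -2.02 in knockdown arrays, against 0.52, 0.77 and 0.61 in vector arrays. The difference of -2.53 ± 0.08 is 5.78-fold, and the values of the groups lie 2.30 log2 units apart at their nearest. A second, dim Oas2 probe gave 0.08, 0.02 and -0.08 in knockdown arrays, against 0.23, 0.42 and 0.25 in vector arrays, a difference of -0.29 ± 0.07. That probe was well above background on 1 of 3 knockdown arrays and on 3 of 3 vector arrays, with Cy5 signals of 88 to 161. Its difference was -1.76 by the scanner software's log ratios, which carry that software's own background and dye corrections.

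Oas1a, the principal small synthetase of the mouse, gave 1.52, 1.63 and 1.54 in knockdown arrays, against 2.36, 2.56 and 2.49 in vector arrays. Its knockdown cells thus stayed above the reference RNA on every array, with a difference of -0.91 ± 0.06 (1.87-fold lower). The mouse genome carries several near-identical Oas1 copies, and probe sequences were not used here, so whether the probe also reads a copy such as Oas1g was not tested. Oas3, the large synthetase and the main maker of active oligoadenylates in human cells, had a pair of probes. Oas3 probe 1 gave -0.38, -0.41 and -0.53 in knockdown arrays, against 0.41, 0.47 and 0.42 in vector arrays, a difference of -0.87 ± 0.05. Oas3 probe 2 gave 0.97, 1.25 and 1.17 in knockdown arrays, against 1.97, 2.43 and 2.23 in vector arrays, a difference of -1.08 ± 0.12. Both Oas3 probes had separate groups, and their differences were closer to each other than those of the Oas2 probes.

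The OAS-like genes went opposite ways. Oasl2, which in the mouse keeps synthetase activity and carries ubiquitin-like domains, gave 0.19, 0.09 and -0.06 in knockdown arrays, against 2.46, 2.51 and 2.39 in vector arrays. Vector cells held far more Oasl2 transcript than the reference RNA and knockdown cells about as much as it, a difference of -2.38 ± 0.07 (5.21-fold lower). Oasl1 has no synthetase activity and in the mouse restrains translation of Irf7, the master regulator of interferon genes. It gave 1.91, 1.84 and 1.80 in knockdown arrays, against 1.16, 1.23 and 1.05 in vector arrays. The knockdown values lay above every vector value, as did 28.4% of all probes tested, with a difference of 0.70 ± 0.06 (1.63-fold higher). Among all probes tested, 6.10% were at least 1.5-fold higher in knockdown. Oasl1 and Oasl2 promoters lie on the same strand of chromosome 5, and neither held a match to the patterns above.

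Each RIG-I-like receptor was lower in the knockdown cells, LGP2 the most. Dhx58 encodes LGP2, which binds double-stranded RNA but lacks the signalling domains of RIG-I and MDA5 and tunes both. It gave 0.33, 0.33 and 0.22 in knockdown arrays, against 1.78, 2.16 and 2.14 in vector arrays, a difference of -1.73 ± 0.10 (3.32-fold lower). The same difference was -2.32 in the Cy5 channel alone. Knockdown arrays were tightly grouped for Dhx58, with an SD of 0.06, while vector replicate 1 lay below the other vector arrays.

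Ddx58 encodes RIG-I, which detects short RNA with a 5′ triphosphate end, and 4 probes measured it. Ddx58 probe 1, the brightest, gave 0.79, 0.97 and 0.86 in knockdown arrays, against 1.68, 2.06 and 2.05 in vector arrays, a difference of -1.05 ± 0.10. Probe 2 gave -0.80, -0.86 and -0.73 in knockdown arrays, against 0.35, 0.38 and 0.29 in vector arrays, a difference of -1.14 ± 0.05. Both of these brighter probes therefore differed by just over 2-fold. Probe 3 gave 0.75, 0.74 and 0.79 in knockdown arrays, against 1.43, 1.42 and 1.52 in vector arrays, a difference of -0.70 ± 0.05. Probe 4 gave 0.68, 0.91 and 0.97 in knockdown arrays, against 1.20, 1.63 and 1.58 in vector arrays, a difference of -0.62 ± 0.12. The groups were separate on all 4 probes, and the dimmer pair gave the smaller differences.

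Ifih1 encodes MDA5, the sensor of long double-stranded RNA, and showed the smallest difference of the 3 receptors. Ifih1 probe 1 gave 1.65, 1.52 and 1.41 in knockdown arrays, against 2.11, 2.09 and 2.04 in vector arrays, a difference of -0.55 ± 0.07 (1.46-fold lower). Ifih1 probe 2 gave 0.67, 0.90 and 0.54 in knockdown arrays, against 0.85, 1.34 and 1.18 in vector arrays, a difference of -0.42 ± 0.13. It was the single probe whose groups overlapped, because knockdown replicate 2 exceeded vector replicate 1. Those arrays lay on different slides. The first slide gave a difference of -0.18 for probe 2, the second -0.54.

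The effector kinase Eif2ak2 and the editing enzyme Adar were lower as well, Adar by less. Eif2ak2 encodes PKR and gave 0.08, 0.30 and 0.21 in knockdown arrays, against 1.17, 1.20 and 1.22 in vector arrays. Its difference was -1.00 ± 0.06, with an SD of 0.11 among knockdown arrays and of 0.03 among vector arrays. Adar encodes ADAR1, which has an interferon-inducible and a constitutive promoter. Adar probe 1 gave 0.66, 0.60 and 0.54 in knockdown arrays, against 1.08, 1.04 and 0.96 in vector arrays, a difference of -0.43 ± 0.05. Adar probe 2 gave 0.02, 0.04 and 0.10 in knockdown arrays, against 0.64, 0.56 and 0.58 in vector arrays, a difference of -0.54 ± 0.05. Both Adar probes had separate groups with differences of under 1.5-fold. The arrays' annotation names a different Adar transcript for each probe, but which isoforms each probe reads was not checked.

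Both slides gave the direction of the pooled difference for all 17 probes. Where the groups do not overlap this follows by construction, so it was open only for Ifih1 probe 2. On 13 of the 17 probes the second slide, with 2 arrays of each group, gave the larger size. The first slide gave differences of -2.30 for Oas2 probe 1, -2.28 for Oasl2, -1.45 for Dhx58 and 0.76 for Oasl1. The second gave -2.64, -2.43, -1.87 and 0.68 for the same probes.

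**Figure D3:**
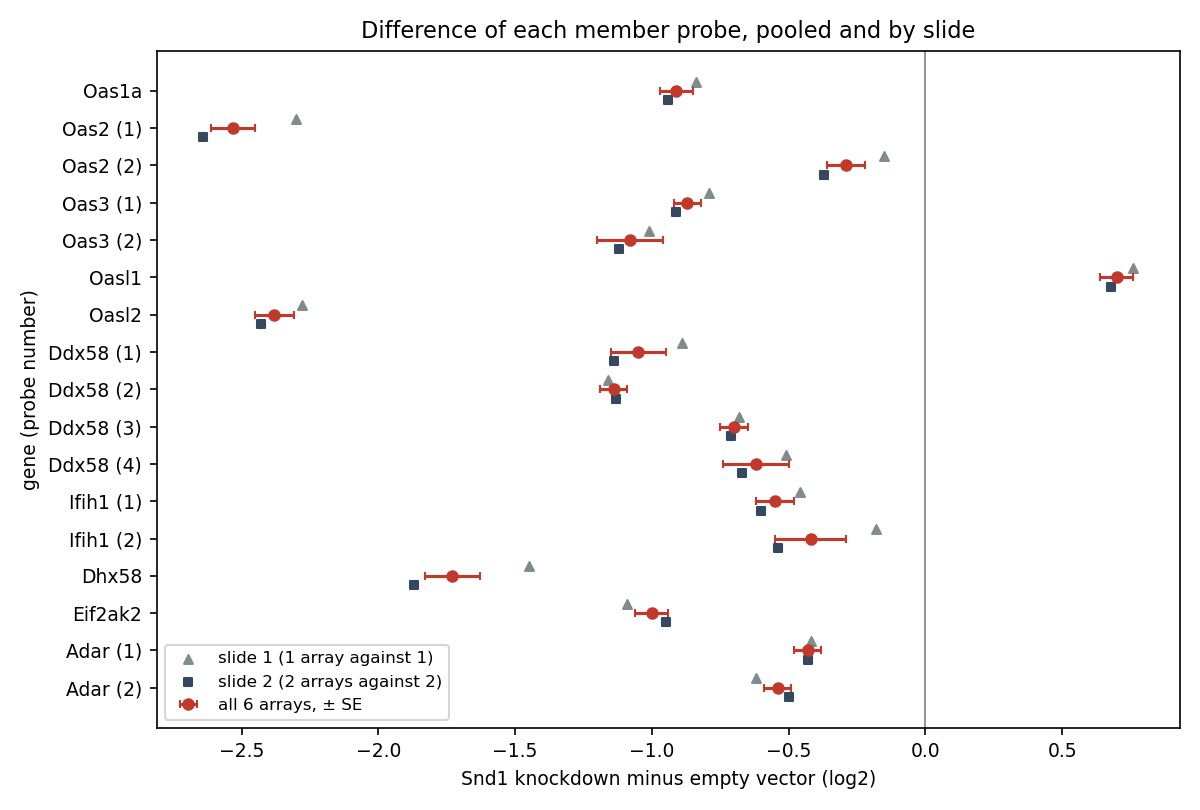
Knockdown minus vector difference (log2) of each probe; circles with bars are all 6 arrays ± SE, triangles the first slide (1 array against 1) and squares the second (2 against 2). Oas2 probe 1 and Oasl2 lie farthest to the left at -2.53 and -2.38, and Oasl1 alone lies right of 0.

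The rescue arrays showed the genes in Mtdh-knockout cells given back wild-type Mtdh or the W391D form deficient in binding Snd1. With 1 array each, this comparison has no replicate check and no test. The arrays also lay on different slides and differed in Mtdh transcript level, so mutation, slide and Mtdh level cannot be told apart. Mtdh itself was -0.10 in the W391D array and 0.42 in the wild-type array by its brighter probe, and -0.16 in the W391D array and 0.01 in the wild-type array by the other. Snd1 was -1.98 in the W391D array and -1.92 in the wild-type array. Of the 17 probes 16 were lower in the W391D array by any amount, as were 50.7% of 35206 probes compared. Of the 16 probes 3 differed by under 0.05, and in the Cy5 channel alone 13 probes were lower. The median over the 10 genes was -0.21, beside 0.00 over all probes. Only 3 probes were lower by at least 1.3-fold, a size that 0.912% of all probes compared reached.

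Those 3 were Ddx58 probe 4, Oas2 probe 1 and Dhx58. Ddx58 probe 4 gave 1.88 in the W391D array, against 2.49 in the wild-type array, a difference of -0.61, but the other Ddx58 probes gave -0.24, -0.07 and 0.07. Oas2 probe 1 gave -0.32 in the W391D array, against 0.16 in the wild-type array, a difference of -0.47 that shrank to -0.12 in the Cy5 channel alone. Dhx58 gave 1.23 in the W391D array, against 1.62 in the wild-type array (-0.39). These sizes rest on single arrays. Ifih1 probe 1 gave 1.68 in the W391D array, against 2.02 in the wild-type array (-0.33). Eif2ak2 gave 0.76 in the W391D array, against 1.04 in the wild-type array (-0.29). The remaining probes differed less: Oasl2 by -0.17, Oas1a by -0.14, the Oas3 probes by -0.10 and -0.14, the Adar probes by -0.02 and -0.10, Ifih1 probe 2 by -0.15 and the dim Oas2 probe by -0.04. Oasl1 was 0.54 on both rescue arrays.

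Set against the WTA line, both rescue arrays lay above every knockdown value on 15 of the 17 probes, the exceptions being Oasl1 and the dim Oas2 probe. For the counts in this paragraph the share over all probes was not computed, so they describe the 17 probes only. Line, slide and Mtdh status differ together here and cannot be told apart. On 8 probes both rescue values fell between the knockdown and vector ranges, among them Oas2 probe 1, Dhx58, Eif2ak2 and Oas1a. On 4 probes, namely Ddx58 probes 1, 2 and 4 and Ifih1 probe 2, both rescue values were above every vector value. Ddx58 probe 1 reached 2.22 in the W391D array and 2.46 in the wild-type array, against 2.06 in the highest vector array. Oasl1 stood apart in the other direction, at 0.54 on both rescue arrays, below the lowest vector value of 1.05 and the lowest knockdown value of 1.80.

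**Figure D4:**
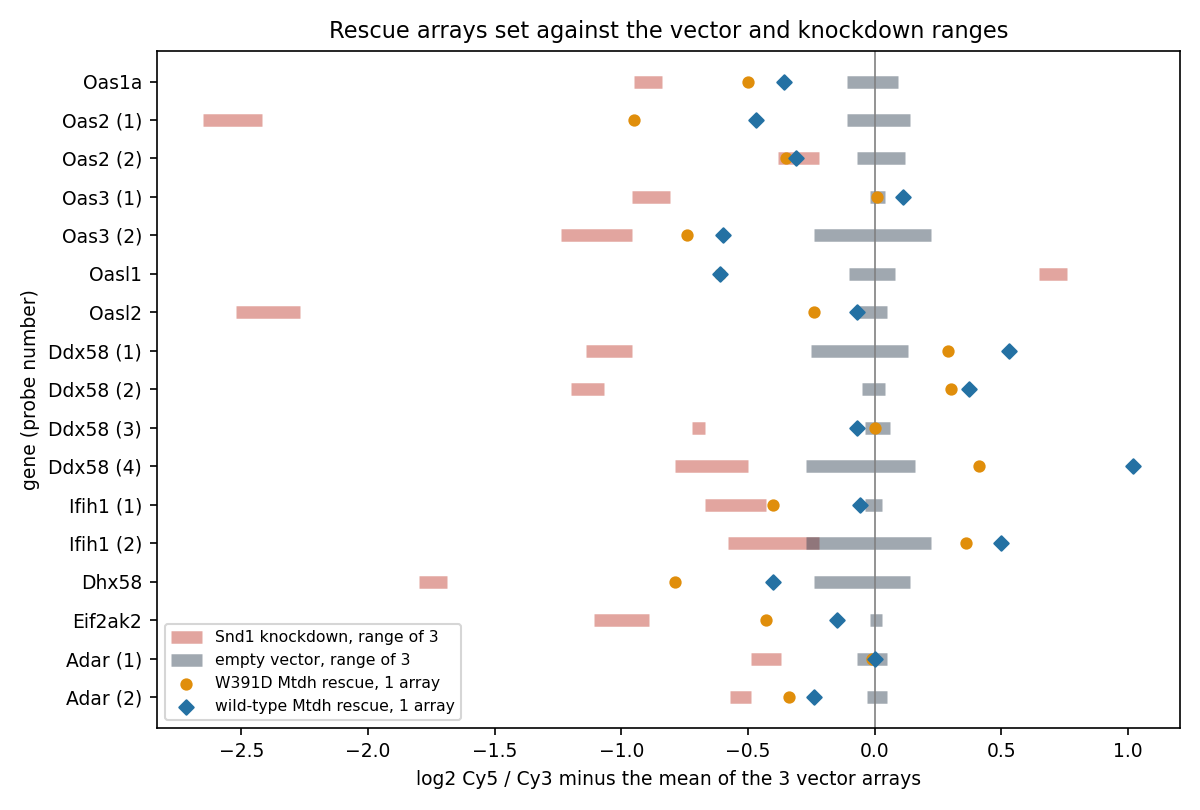
Log2 ratios minus the mean of the 3 vector arrays (x axis) for each probe (y axis); bars span the 3 knockdown or 3 vector arrays, circles are the W391D rescue array and diamonds the wild-type rescue array. Most rescue points lie between or above the bars, W391D usually left of wild type, and for Oasl1 both points coincide left of both bars.

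Partner genes of the same pathways, none of them among the 10 genes, were tested in 4 lists. These lists too were chosen with earlier results of these data known, so their calls are not independent support. Each gene was read by its brightest probe in limma's fit over all 33563 probes, with Benjamini-Hochberg adjustment. Of 93 genes 83 had a probe and 79 were tested: 37 fell, 21 rose and 21 did not pass, with a median difference of -0.12. Among all 17224 named genes tested, 25.6% were called lower and 26.0% higher, with a median of 0.01. All 58 called partner genes had groups without overlap, so both slides had to give them the same direction.

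Of the 8 tested genes in the list of OAS relatives and oligoadenylate-linked genes, 5 fell and 2 rose (median -0.43, and -0.40 and -0.44 on the slides). The falls were led by other copies of the Oas1 cluster. Oas1f gave 1.62, 1.49 and 1.55 in knockdown arrays, against 2.81, 2.84 and 2.69 in vector arrays (-1.23 ± 0.06, limma adjusted p = 1.12e-06). Oas1c fell by 1.02 on the log2 scale (limma adjusted p = 5.49e-06) and Oas1e by 0.66 (limma adjusted p = 0.000506), both with the caution on near-identical copies. Pde12, a phosphodiesterase that degrades oligoadenylates, went the other way. It gave 1.60, 1.78 and 1.85 in knockdown arrays, against 1.23, 1.21 and 1.23 in vector arrays, and rose by 0.52 ± 0.07 (limma adjusted p = 0.000277).

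Of 27 tested adaptors and regulators of the RIG-I-like receptors and related nucleic acid sensors, 15 fell and 8 rose (median -0.19, and -0.22 and -0.25 on the slides). Zbp1, a sensor of left-handed nucleic acids, gave 0.72, 0.68 and 0.49 in knockdown arrays, against 2.66, 2.84 and 2.74 in vector arrays (-2.11 ± 0.08, limma adjusted p = 2.64e-07). The difference of Zbp1 was -3.01 in the Cy5 channel alone. Tlr3, the endosomal receptor of double-stranded RNA, gave 0.96, 1.16 and 1.16 in knockdown arrays, against 2.58, 2.86 and 2.80 in vector arrays (-1.66 ± 0.09, limma adjusted p = 1.68e-06), with -2.06 by another probe and -2.71 in the Cy5 channel alone. Sting1, the adaptor of cytosolic DNA sensing, fell by 1.04 on the log2 scale (limma adjusted p = 7.25e-07). The shared adaptor of RIG-I and MDA5 did not follow. Mavs was 0.47, 0.38 and 0.34 in knockdown arrays, against 0.26, 0.30 and 0.28 in vector arrays (0.12 ± 0.05, limma adjusted p = 0.091). Cyld, a deubiquitinase acting on RIG-I, fell by 0.82 by its brightest probe (limma adjusted p = 5.88e-06), although its other probes gave -0.03 and -0.02. Tbkbp1, a scaffold of the kinase Tbk1, rose by 0.82 ± 0.06 (limma adjusted p = 1.06e-05), or by 1.67 in the scanner software's log ratios. The Tbkbp1 probe was dim, with a median Cy5 signal of 174 on the 6 arrays.

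The eIF2 kinases and the binding and editing proteins of double-stranded RNA showed no shared direction: of 22 tested, 7 fell and 8 rose (median -0.01, and 0.04 and -0.04 on the slides). Ppp1r15a, which directs the dephosphorylation of eIF2 alpha and so opposes PKR, gave 1.88, 1.77 and 1.72 in knockdown arrays, against 0.83, 0.77 and 0.74 in vector arrays (1.01 ± 0.05, limma adjusted p = 2.2e-06). Tarbp2 and Prkra, related binding proteins that in human cells inhibit and activate PKR, moved apart. Tarbp2 rose by 0.82 ± 0.04 (limma adjusted p = 2.3e-06), whereas Prkra fell by 0.53 on the log2 scale (limma adjusted p = 5.11e-05). Drosha, the nuclear microRNA-processing nuclease, fell by 0.81 (limma adjusted p = 2.08e-06). The editing enzyme Adarb1 fell by 0.55 by its brightest probe (limma adjusted p = 1.83e-05), while its other probe gave 0.10.

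In the list of interferons, their receptors and ISGF3, 10 of 22 tested genes fell and 3 rose (median -0.12, and -0.08 and -0.15 on the slides). Irf9, a subunit of ISGF3, gave 0.86, 0.77 and 0.66 in knockdown arrays, against 1.82, 1.83 and 1.76 in vector arrays (-1.04 ± 0.06, limma adjusted p = 3.03e-06), with -0.62 by its other probe. Stat2, another subunit, fell by 0.95 on the log2 scale (limma adjusted p = 2.74e-05). Socs1, an inhibitor of the receptor-bound kinases, rose by 0.89 ± 0.05 (limma adjusted p = 4.05e-06).

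Among ligands, Ifnb1 (interferon beta) gave 0.16, 0.30 and 0.15 in knockdown arrays, against 0.91, 1.00 and 0.91 in vector arrays. This fall of -0.73 ± 0.06 (limma adjusted p = 1.57e-05) became -1.45 in the scanner software's log ratios, and on the rescue arrays Ifnb1 was 1.55 with W391D Mtdh and 1.27 with wild-type Mtdh. Of 6 interferon alpha genes tested, Ifna13 rose by 0.24 ± 0.05 (limma adjusted p = 0.00286), and Ifna2, Ifna4, Ifna5, Ifna9 and Ifna12 lay between -0.01 and 0.12 and did not pass. Ifne and Ifnk were too dim to be tested. Ifnl3 fell by 0.19 (limma adjusted p = 0.0078) and Ifng by 0.15 (limma adjusted p = 0.0324), with -0.03 by the other Ifng probe. Apart from Ifna13, the brightest probes of the tested ligands were dim, although well above background on all 6 arrays. Their median Cy5 signals were 156 for Ifnb1, 152 for Ifng, 200 for Ifnl3 and 129 to 304 for the uncalled alpha genes. Receptor chains differed in direction. The type III chain Ifnlr1 fell by 0.77 (limma adjusted p = 1.48e-05) and the type II chain Ifngr1 by 0.51 (limma adjusted p = 2.19e-05). The partner of Ifngr1, Ifngr2, rose by 0.50 ± 0.05 (limma adjusted p = 3.96e-05), with 0.45 by its other probe. The type I chain Ifnar2 differed by -0.21 (limma adjusted p = 0.0119, or 0.365 in the Cy5 channel alone). Its partner Ifnar1 was 0.16 ± 0.08 higher and did not pass (limma adjusted p = 0.166), but did so with replicate number (0.0306) or slide (0.0218) as a block.

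**Figure D5:**
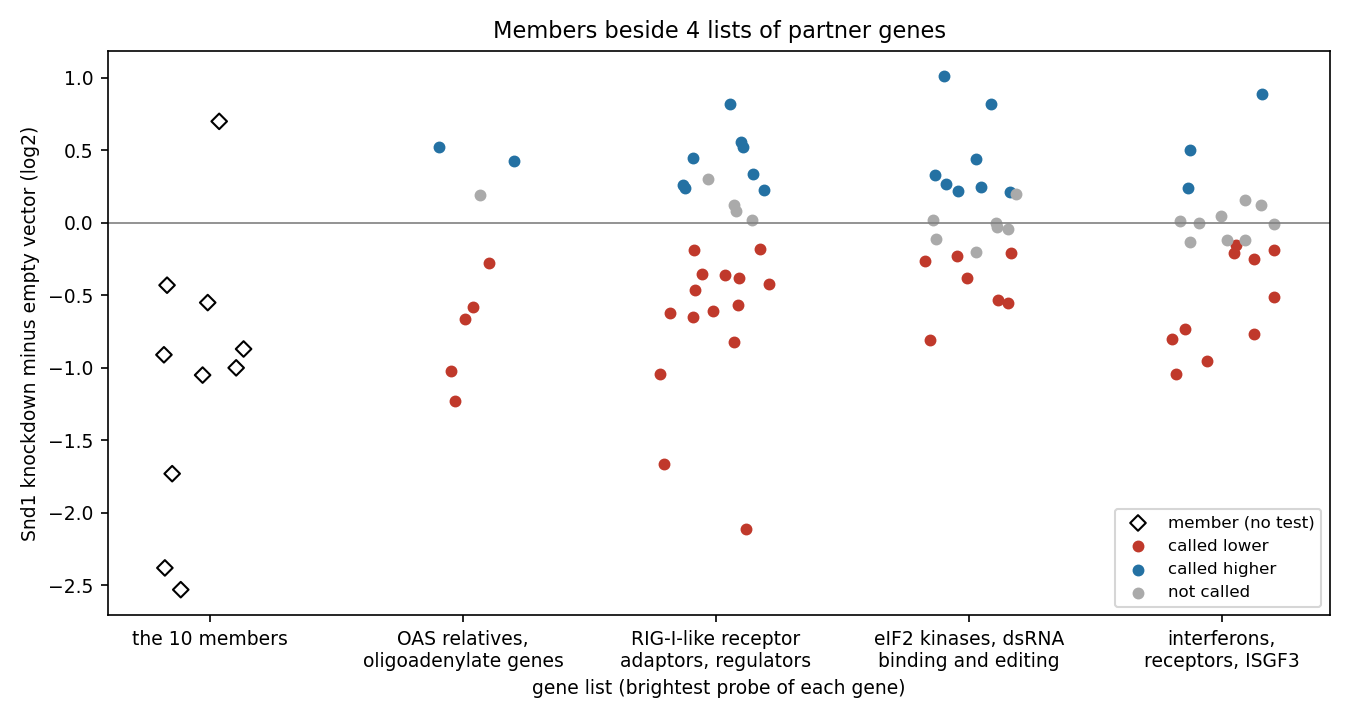
Knockdown minus vector difference (log2, y axis) of the 10 genes (open diamonds, not tested) and of the tested genes of 4 partner lists (points, brightest probe of each gene), with red for called lower, blue for called higher and grey for not called in limma's test. The lists span both sides of 0, with Zbp1 (-2.11) lowest and Ppp1r15a (1.01) highest among partner genes.

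The per-array median of the 10 genes was 0.49, 0.46 and 0.38 on knockdown arrays, against 1.42, 1.65 and 1.63 on vector arrays, and it was 1.12 with W391D Mtdh and 1.33 with wild-type Mtdh. Genes outside the set with the most similar profile were ranked by Pearson's r with this median over the 8 arrays among 16026 named genes. The arrays fall into clusters by group and cell line, so many genes reach a high r, and it is given as a description. The 6 highest were Ebp, an enzyme of cholesterol synthesis (r = 0.9981), the cilium transport gene Ift172 (0.9969), the membrane protein gene Emp2 (0.9963), Oas1c (0.9953), the mitochondrial kinase gene Nme4 (0.9949) and the respiratory chain subunit Cox7a1 (0.9949). Their knockdown minus vector differences ran from -1.13 for Emp2 to -0.73 for Ebp, and each was lower with W391D than with wild-type Mtdh, with differences of -0.22 to -0.11. Both directions follow largely from the ranking, which used all 8 arrays. Only Oas1c of these 6 belongs to the OAS family.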

How the data were processed

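Sample and reference RNA of 8 two-channel arrays were measured in Cy5 and Cy3, with no dye swap. Per the file headers, the deposited spot intensities are median pixel values extracted with Agilent Feature Extraction 11.0.1.1, whereas the submitters' processing notes name 9.5.3.1. The same files hold deposited log10 ratios of Cy5 to Cy3, which the software had background-subtracted and dye-normalized. The deposited series table was found to be the log2 form of those ratios, since r with each array's own values was at least 0.9878 and between 93.9% and 98% of 41156 probes matched to 0.01. Its medians were 0.0906, 0.105 and 0.118 (knockdown), 0.146, 0.119 and 0.116 (vector), 0.0345 (W391D) and 0.0256 (wild-type rescue), so it was not centred.

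Background was removed from the intensities by normexp with an offset of 50, and each array's log ratios were loess-normalized (limma 3.58.1, R 4.3.3). The 1639 control spots and 77 to 142 outlier spots per array were left out, no spot was saturated, and repeated spots were averaged. Unversioned accessions named 27668 probes through a RefSeq table of a later build than the headers give, and 13506 stayed unnamed. Of each array's 43379 spots, 78.02% to 88.47% were well above background in Cy5. Knockdown and vector were compared over probes well above background in Cy5 on at least 3 of 6 arrays (lmFit, eBayes, Benjamini-Hochberg, called at an adjusted p under 0.05). On simulated data with 200 changed probes of 33551, 98.8% of log2 changes of 1 and 67.5% of 0.5 were recovered, with 8 false calls. The simulated arrays had independent noise and far fewer changed probes than were called here. These rates therefore check the code and do not carry over to the calls reported. Rescue differences used probes well above background on at least 1 of those 2 arrays.

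The 10 genes, the partner lists and the marker lists were chosen with earlier results of these data known. Named are every probe of the 10 genes, up to 5 called genes of smallest p per partner list, and interferons and ISGF3 genes by role. Snd1, Mtdh and the 6 genes of most similar profile are named as well. Mavs, Ifnar1, Ifnar2, Ifngr2, Ptprc, Cd14, Krt8, Krt18, Krt19, Postn and Dcn were chosen for naming after their values were seen. Replicate numbers in the titles are shared by knockdown and vector arrays, and arrays with the same number deviated together from their group means (r of 0.57, 0.308 and 0.312), so a replicate block was fitted as an alternative. Other alternatives were no background correction, the scanner software's log ratios, the series table, median centring, Aquantile, Cy5 alone, other filters, the mean of a gene's probes, a slide block, the second slide alone, and leaving out each array. Probe and protein sequences were not used here, and 2 genes that the rule took are not reported here.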

Additional observations from a re-analysis of the deposited data

How the results depend on the processing

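The median knockdown minus vector difference of the 10 genes, -0.95, kept its direction under every alternative run, although some alternatives could not change it. It was -1.08 with the scanner software's log ratios and with the series value table, the log2 form of those ratios. It was -1.20 with median centring in place of loess and -1.21 with Cy5 alone. The cause was not tested. Leaving out 1 array at a time gave -0.99 to -0.92, and 15 or 16 probes stayed without overlap. With replicate number as a block, the paired analysis called 38 partner genes lower and 24 higher, beside 37 and 21 without it, and among the genes recomputed singly with it the call of Ifnar1 changed. Mavs, Ifnl3, Ifng, Ifngr2, the alpha interferons and the markers were not recomputed singly. Leaving out an array gave 33 to 38 lower and 19 to 21 higher, and the other alternatives 31 to 40 lower and 14 to 25 higher, with 14 under median centring (39 lower). The W391D minus wild-type median ranged from -0.29 to -0.14 around -0.21, with 13 to 16 probes lower in W391D. Under Cy5 alone Oas2 probe 2 (0.12), Oas3 probe 2 (0.15) and Oasl1 (0.09) turned higher in W391D, as did Oas2 probe 2 under median centring (0.09). Of 978 result and setting pairs 894 stayed within the replicate spread or on their side of the threshold, and none of the called results reversed. Aquantile leaves log ratios unchanged by construction. The replicate block, the slide block and the other filters likewise left the differences of the 10 genes as they were. The series table repeats the scanner software's ratios, so it is not a separate check. The 894 pairs therefore include many that could not change, and their share of 978 does not measure robustness. Limits are 3 arrays a group, 1 hairpin, 1 array per rescue, no dye swap and dim probes, among them the second Oas2 probe and that of Ifnb1.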
